A study of Mus musculus with 6 samples.

Results

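Hox genes encode the homeodomain transcription factors that give cells along the head-to-tail axis their position. They were followed here in cultured lung fibroblasts of Mmp19 knockout and wild-type mice. The 38 genes taken were members of the 4 Hox clusters, 10 each from Hoxa and Hoxb and 9 each from Hoxc and Hoxd. They were found on the arrays through the RefSeq accession of each probe, with no use of a measured value. All 38 were represented, by 41 probes, among 20018 genes that could be named. The 6 samples were 3 cultures from Mmp19 knockout mice and 3 from wild-type (WT) mice. Every mouse, of either genotype, was labelled female and 11 weeks old, received 0.08 units of bleomycin into the trachea and was killed on day 21, so there was no group without bleomycin. Bleomycin damages the lung and leaves a scar rich in fibroblasts and collagen. The isolated fibroblasts were incubated for 72 hours, and their RNA was read on one-colour Agilent arrays. Mmp19 is a secreted matrix metalloproteinase, and the comparison asks how fibroblasts of the injured lung differ without it. The sources used here do not give the knockout allele or the strain of the wild-type mice. The series text speaks of independent experiments but does not say how many mice made up a culture.

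In each Hox cluster the genes lie in a row in the same order as their domains of expression along the body. Genes of low paralogue number act in the hindbrain, neck and upper trunk, and genes of high number in the lower trunk, limb ends and genital region. Adult fibroblasts keep much of the Hox pattern of the site they came from, also in culture, which is why a fibroblast's Hox genes are read as a record of its position. The lung bud arises from the anterior foregut, and its mesenchyme is known for Hoxa and Hoxb genes of the middle of the clusters, with Hoxa5 needed for normal lung and trachea development.

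The cultures held fibroblast RNA: all 14 fibroblast markers were detected on every knockout array and 13 of 14 on every wild-type array (detected here means flagged as well above background). Markers of other cells were detected too. Of 12 epithelial markers, 7 were on every knockout and 8 on every wild-type array, surfactant genes among them, and Epcam, Nkx2-1 and Cldn18 were on none. Of 11 macrophage markers these counts were 5 and 4, with Mrc1, Itgax and Fcgr1 on none, and of 10 endothelial markers 5 and 5, with Tek, Tie1, Emcn, Erg and Sox17 on none. Mesothelial markers differed, with 12 of 13 on all knockout arrays and 6 of 13 on all wild-type arrays; Calb2 was on none. The summed linear signal of the mesothelial list, in units of each array's 75th percentile, was 52.9 to 166.6 in the knockout and 4.22 to 22.3 in the wild type. Fibroblast sums did not overlap either, at 2620 to 2725 in the knockout and 1310 to 2469 in the wild type. The sums overlapped between genotypes for epithelial (51.0 to 77.9 and 67.5 to 81.1), macrophage (48.2 to 110.3 and 59.7 to 72.9) and endothelial markers (3.76 to 5.51 and 4.10 to 5.77). Mural markers summed to 389 to 432 in the knockout and 89.4 to 507 in the wild type. The Mmp19 probe was detected on 0 of 3 knockout and 3 of 3 wild-type arrays. Its signal was lower in the knockout by at least 5.33-fold, with measured log2 levels of -5.93 ± 0.65 and -1.31 ± 1.2 (SD, n = 3 each) and an adjusted p of 0.0160 by limma. Where the probe lies relative to the deletion is unknown here. The female label was not borne out on any wild-type array. Xist, the RNA that silences an X chromosome in females, was detected on 3 of 3 knockout and 0 of 3 wild-type arrays. Eif2s3y and Ddx3y, which lie on the Y chromosome, were detected on all 6, so the knockout arrays held both kinds of RNA. Eif2s3y levels were 2.19, -1.77 and 0.67 in the knockout and 2.92, 4.18 and 3.62 in the wild type. Levels of Eif2s3y and Ddx3y did not overlap between genotypes and were lower in the knockout, with differences of -3.21 and -2.47 (limma adjusted p = 0.112 and 0.139). Of the other Y-linked genes, Uty was detected on wild-type replicate 3 only and Kdm5d on no array. The sex of the cultures and the genotype therefore cannot be told apart in any result here, and the part that mesothelial RNA had in the Hox values was not tested. Of the wild-type arrays, replicate 2 was least like the others: it correlated at 0.940 and 0.960 with replicates 1 and 3, and these at 0.984 with each other. In bulk cultures, fewer cells of a type and less RNA per cell cannot be told apart.

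Which Hox genes the cultures expressed was read from the same flag, which Agilent's software sets for a spot clearly brighter than its surroundings. The brightness of different probes is not comparable, and the flag depends on the probe too. For Six2, a positional factor outside the clusters, a probe was flagged on no array while another was flagged on all wild-type arrays. A gene without the flag is therefore not shown to be silent. Of the 38 Hox genes, 15 (39.5%) were well above background on all 6 arrays, 7 on some arrays and 16 (42.1%) on none. Among all named genes, 56.6% were well above background on all arrays and 25.6% on none.

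The detected genes lay in the front and middle of the Hoxa and Hoxb clusters. In Hoxb, on chromosome 11, the 8 neighbours from Hoxb2 to Hoxb9 were detected on all 6 arrays, an unbroken run, with Hoxb1 on none and Hoxb13 on wild-type replicate 3 only. In Hoxa, on chromosome 6, Hoxa2, Hoxa3, Hoxa4, Hoxa5 and Hoxa7 were detected on all 6 arrays, Hoxa6 on 4, and the later genes Hoxa10 and Hoxa11 on none. In Hoxc, on chromosome 15, only Hoxc4 and Hoxc6 of 9 genes were detected on all 6 arrays. In Hoxd, on chromosome 2, no gene was, and 8 of 9 were detected on no array; Hoxd8 was detected on knockout replicate 2 only. By paralogue number, 15 of the 26 genes of numbers 1 to 9 were detected on all arrays, against 0 of the 12 genes of numbers 10 to 13.

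The genotypes did not separate in the number of Hox genes detected. The knockout arrays showed 15, 19 and 17 Hox genes and the wild-type arrays 17, 16 and 19, so the groups overlapped. Of all spots, 43.1%, 52.5% and 51.1% were well above background on these knockout arrays. On the wild-type arrays these shares were 48.7%, 44.6% and 54.5%. Arrays with a larger share of all spots detected also showed more or as many Hox genes. No Hox gene was detected on all arrays of 1 genotype and none of the other. The nearest was Hoxa9, a gene of blood progenitors and the trunk, with 0 of 3 knockout arrays and 2 of 3 wild-type arrays. Its levels overlapped between the genotypes.

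**Figure D1:**
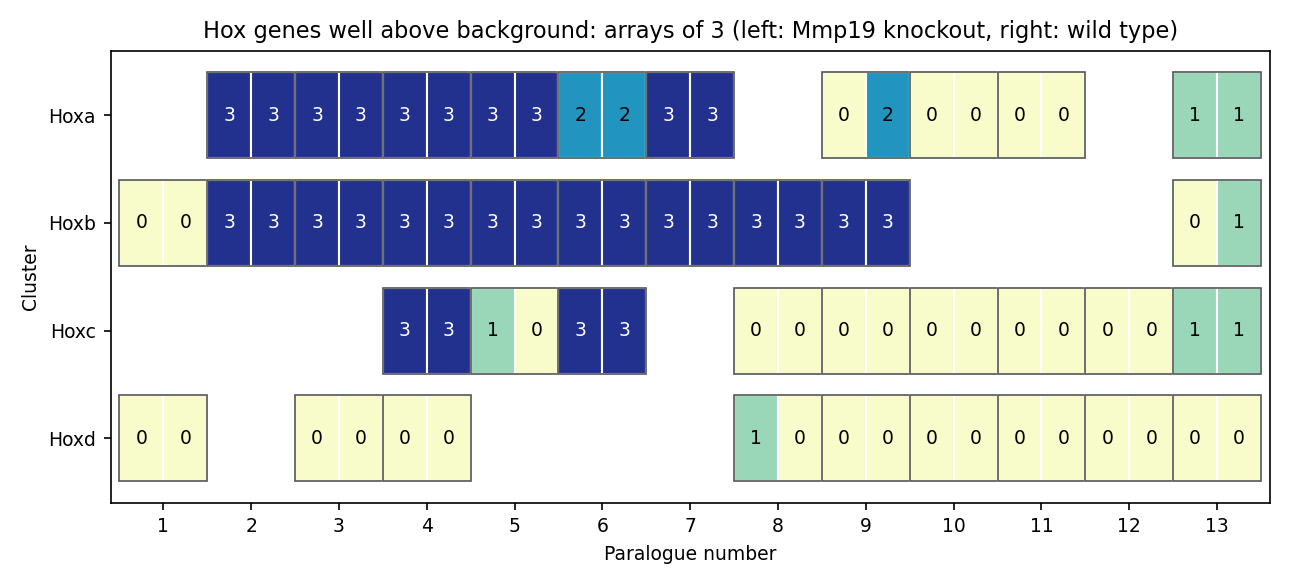
Detection of the 38 Hox genes by cluster (vertical axis) and paralogue number (horizontal axis). Each gene is a pair of cells with the number of arrays, of 3, on which it was well above background, knockout on the left and wild type on the right; blank positions hold no gene of the list. The run from Hoxb2 to Hoxb9 reads 3 throughout, and in Hoxd the only cell above 0 is Hoxd8 in the knockout.

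Promoters of Hox genes are rich in CG pairs, the sites of DNA methylation, and the 4th paralogues show the clusters' contrast in a single gene type. Hoxa4, Hoxb4 and Hoxc4 were detected on all 6 arrays and Hoxd4 on none. No promoter sequence was at hand for Hoxa4. The sequences below are the 250 bases before the start in RefSeq (GRCm38.p6), 5′ to 3′ on the gene's strand, with each CG in capitals. Hoxb4 is at chr11:96318017-96318266 on the plus strand, Hoxc4 at chr15:103034145-103034394 on the plus strand and Hoxd4 at chr2:74721728-74721977 on the plus strand.
Hoxb4: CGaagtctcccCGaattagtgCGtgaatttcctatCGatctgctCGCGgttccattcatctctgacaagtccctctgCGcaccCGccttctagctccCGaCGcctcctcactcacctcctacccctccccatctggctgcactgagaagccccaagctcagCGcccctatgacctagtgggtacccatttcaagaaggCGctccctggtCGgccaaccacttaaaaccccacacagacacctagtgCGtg
Hoxc4: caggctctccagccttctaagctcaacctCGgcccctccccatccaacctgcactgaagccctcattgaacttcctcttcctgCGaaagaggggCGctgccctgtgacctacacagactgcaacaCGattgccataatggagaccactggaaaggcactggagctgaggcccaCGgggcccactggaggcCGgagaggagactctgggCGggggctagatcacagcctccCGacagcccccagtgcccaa
Hoxd4: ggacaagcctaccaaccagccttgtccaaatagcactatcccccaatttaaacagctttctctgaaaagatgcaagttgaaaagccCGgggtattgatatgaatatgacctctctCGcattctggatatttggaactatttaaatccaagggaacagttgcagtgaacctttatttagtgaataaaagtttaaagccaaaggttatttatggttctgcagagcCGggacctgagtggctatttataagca
The Hoxb4 window held 14 CG pairs, the Hoxc4 window 8 and the Hoxd4 window 3. That order did not carry over to the family. The RefSeq table held 24 windows for 22 of the 38 genes, with a median of 12.5 CG pairs against 6 over all 32851 windows. The 7 windows of genes detected on all 6 arrays held 6 to 28 CG pairs (median 12), and the 13 windows of genes detected on no array held 2 to 31 (median 13), so the ranges overlapped.

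Hox proteins bind many sites together with Pbx, a homeodomain partner. The composite motif TGATNNAT was searched on both strands of the same 250 bases. It stood in 4 of 24 Hox windows (16.7%), those of Hoxa2, Hoxb1, Hoxb8 and the downstream start of Hoxd11, and in 7.68% of all RefSeq windows. Of these genes, Hoxa2 and Hoxb8 were detected on all 6 arrays and Hoxb1 and Hoxd11 on none. Hoxa2 (chr6:52164832-52165081, minus strand), Hoxb8 (chr11:96281655-96281904, plus strand) and Hoxb1 (chr11:96365508-96365757, plus strand) are shown with the motif in capitals.
Hoxa2: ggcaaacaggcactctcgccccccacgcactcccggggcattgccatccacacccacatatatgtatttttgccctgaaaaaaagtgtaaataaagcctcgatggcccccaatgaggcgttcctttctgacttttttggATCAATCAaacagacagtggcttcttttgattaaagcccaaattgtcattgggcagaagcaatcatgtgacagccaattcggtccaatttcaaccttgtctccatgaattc
Hoxb8: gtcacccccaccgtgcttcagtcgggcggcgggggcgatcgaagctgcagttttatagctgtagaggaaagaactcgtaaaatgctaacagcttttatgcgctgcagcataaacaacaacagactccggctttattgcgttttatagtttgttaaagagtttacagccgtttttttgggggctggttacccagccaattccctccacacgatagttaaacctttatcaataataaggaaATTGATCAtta
Hoxb1: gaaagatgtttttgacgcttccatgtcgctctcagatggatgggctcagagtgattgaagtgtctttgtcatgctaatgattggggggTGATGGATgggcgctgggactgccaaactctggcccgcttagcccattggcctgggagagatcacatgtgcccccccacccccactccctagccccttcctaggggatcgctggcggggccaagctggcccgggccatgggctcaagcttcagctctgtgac
The match began 111 bases before the start in Hoxa2, 11 in Hoxb8 and 162 in Hoxb1. A match of these letters describes the sequence only.

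Genes enter the comparison of genotypes when a probe was well above background on all 3 arrays of a group, which 15 Hox genes met, the same 15 that were detected on all 6 arrays. The other 23 were not compared. Levels are log2 signals relative to each array's 75th percentile, and differences are knockout minus wild type. By limma with Benjamini-Hochberg adjustment over 24214 probes, 0 of the 15 Hox genes were higher and 0 were lower in the knockout at an adjusted p under 0.05, where 4.80% of 12470 named genes and 4.64% of all probes were called. With slide as a block 0 of 15 were called too, against 1.80% of named genes. At an unadjusted p under 0.05 there were 4 of 15 (26.7%): Hoxa3, Hoxa7, Hoxb3 and Hoxc6, against 21.8% of named genes. The 2 genotypes did not overlap for 5 of 15, against 31.0% of named genes. Both shares are near their backgrounds.

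The point estimates were mostly small and positive. Of 15, 12 were above 0 and 3 below, where 7022 of 12470 named genes were above 0 and 5448 below. The median of the 15 was 0.38, while the median over all named genes was 0.08. The Hox median was 0.17 without wild-type replicate 2, 0.21 with normexp background correction and 0.18 with a looser filter, which tested 20 Hox genes. The sign of Hoxb2, Hoxb5 and Hoxb9, all near 0, turned under at least 1 other scaling. The median size of the difference was 0.44 for Hox genes and 0.36 for all named genes. Each slide held the same-numbered knockout and wild-type array, so that differences can also be read within a slide. The 15 differences were positive for 8 genes on slide 1, for 13 on slide 2 and for 11 on slide 3, and 8 genes kept 1 sign on all 3 slides. These slide counts were not made for all named genes.

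**Figure D2:**
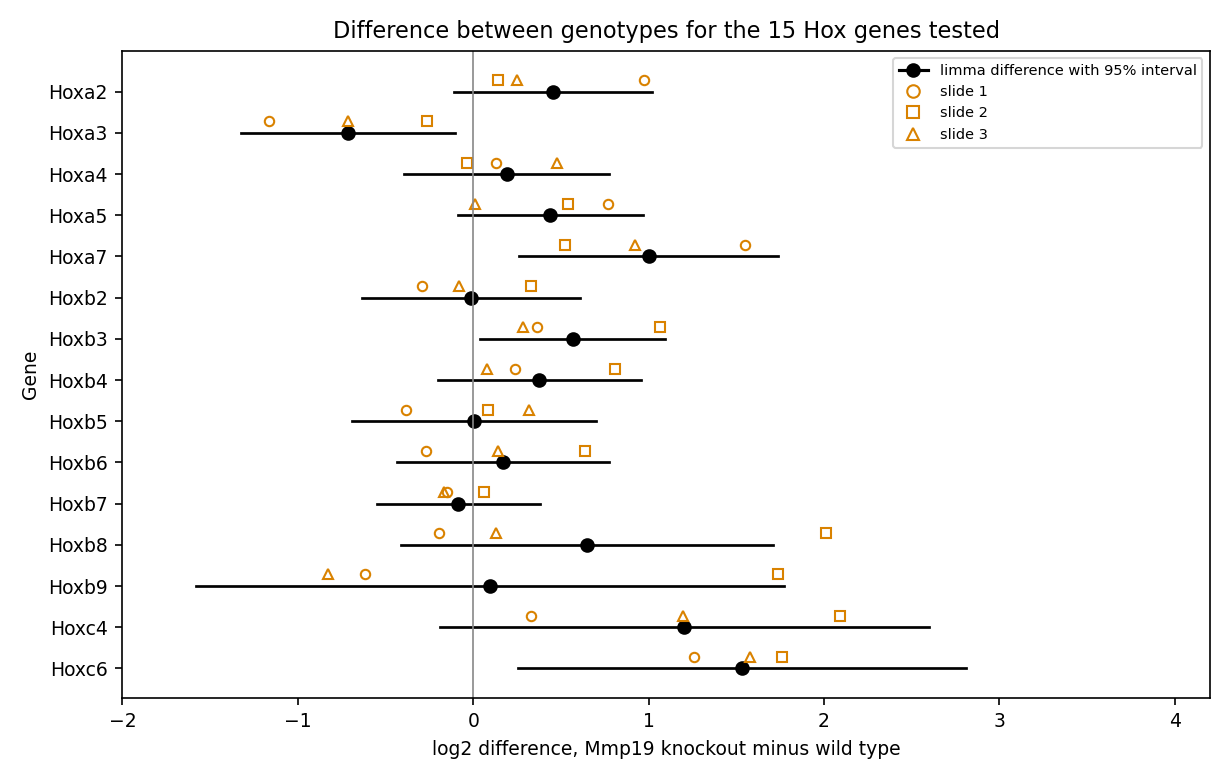
Difference in log2 signal, knockout minus wild type (horizontal axis), for the 15 Hox genes tested (vertical axis). Black points and lines are the limma difference with its 95% interval over 3 against 3 arrays, and open symbols the difference on each slide. The intervals of Hoxa3, Hoxa7, Hoxb3 and Hoxc6 leave out 0, but none of these genes passed the adjusted threshold.

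Hoxa genes gave the clearest opposed pair. Hoxa7, a gene of the neck-to-chest boundary, had levels of 3.92, 2.78 and 3.18 in knockout replicates 1, 2 and 3 and of 2.37, 2.25 and 2.25 in the wild type. All knockout arrays were above all wild-type arrays, and the wild-type values lay close together while the knockout values were spread. The difference was 1.0 (SE 0.31, 95% interval 0.26 to 1.74), a 2.0-fold higher signal, with a limma adjusted p of 0.128 and of 0.148 with slide as a block. Hoxa3, which directs thymus, parathyroid and throat cartilage development, went the other way. Its levels were 2.36, 3.20 and 2.72 in the knockout and 3.53, 3.47 and 3.43 in the wild type, so every knockout array was below every wild-type array. The difference was -0.71 (SE 0.26, 95% interval -1.32 to -0.11), which is 1.64-fold higher in the wild type, with a limma adjusted p of 0.176.

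The RefSeq windows of these oppositely placed genes are neighbours. The start that RefSeq gives for Hoxa3 (chr6:52213068-52213317, minus strand) lies between the windows of Hoxa6 and Hoxa7 (chr6:52218574-52218823, minus strand), so this Hoxa3 start belongs to a transcript that runs past the genes in between. Both windows are shown 5′ to 3′ with each CG in capitals, 18 in Hoxa3 and 7 in Hoxa7.
Hoxa3: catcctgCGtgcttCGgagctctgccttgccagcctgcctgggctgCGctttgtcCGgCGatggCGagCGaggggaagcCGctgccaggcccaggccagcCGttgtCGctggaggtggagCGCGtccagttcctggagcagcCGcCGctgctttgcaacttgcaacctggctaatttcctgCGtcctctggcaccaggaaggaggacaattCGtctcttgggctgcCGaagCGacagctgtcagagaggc
Hoxa7: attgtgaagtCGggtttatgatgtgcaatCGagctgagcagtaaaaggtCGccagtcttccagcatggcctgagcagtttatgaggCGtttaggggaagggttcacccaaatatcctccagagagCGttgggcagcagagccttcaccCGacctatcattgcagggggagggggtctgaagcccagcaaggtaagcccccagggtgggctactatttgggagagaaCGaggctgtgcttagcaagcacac
The sources used here do not say which Hoxa3 transcripts the probe reads.

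Among the other Hoxa genes, Hoxa5 and Hoxa2 had higher point estimates in the knockout. Hoxa5, the family member with the best known lung role, had levels of 1.83, 1.73 and 1.63 in the knockout and 1.06, 1.19 and 1.62 in the wild type. The groups just missed overlapping, since knockout replicate 3 and wild-type replicate 3 were nearly equal. The difference was 0.44 (SE 0.22, 95% interval -0.09 to 0.97; limma adjusted p = 0.310). Hoxa2, the selector gene of the second pharyngeal arch, had levels of 0.20, 0.02 and 0.01 in the knockout and -0.78, -0.13 and -0.24 in the wild type. The groups did not overlap, and wild-type replicate 1 was the lowest. Its difference was 0.46 (SE 0.24, 95% interval -0.11 to 1.02; limma adjusted p = 0.322). Hoxa4, an axial patterning gene, overlapped between groups, with a difference of 0.19 (95% interval -0.39 to 0.77).

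In Hoxb, the most completely detected cluster, the median of the 8 differences was 0.13, and none had an adjusted p below 0.20. Hoxb3, a hindbrain and throat patterning gene, was the 1 Hoxb gene without overlap. Its levels were 1.23, 1.53 and 1.11 in the knockout and 0.87, 0.46 and 0.83 in the wild type. The difference was 0.57 (SE 0.22, 95% interval 0.04 to 1.10; limma adjusted p = 0.204), and a second Hoxb3 probe gave 0.52. Hoxb4, known for expanding blood stem cells, differed by 0.38 (95% interval -0.20 to 0.96).

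Hoxb2, Hoxb5, Hoxb6 and Hoxb7 had point estimates between -0.08 and 0.17. Hoxb5 is known for airway branching, and Hoxb2 and Hoxb6 pattern the hindbrain and the trunk. The interval of Hoxb7 ran from -0.55 to 0.38, that of Hoxb2 from -0.63 to 0.61, that of Hoxb6 from -0.44 to 0.78 and that of Hoxb5 from -0.69 to 0.70. These intervals leave room for changes of up to about the size seen for Hoxa3, so equal levels are not shown.

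Hoxb8 and Hoxb9, the last genes of the detected run, depended on wild-type replicate 2. Hoxb8, which acts in spinal cord circuits and blood progenitors, had levels of 2.10, 2.63 and 2.05 in the knockout and 2.29, 0.62 and 1.91 in the wild type. Only wild-type replicate 2 was low, and the difference of 0.65 (95% interval -0.41 to 1.71) became 0.15 without it. Hoxb9, which with its paralogues shapes the ribs, had levels of 0.28, -0.19 and -0.40 in the knockout and 0.90, -1.93 and 0.43 in the wild type. Its difference of 0.10 (95% interval -1.58 to 1.77) turned to -0.77 without that array, with a limma adjusted p of 0.162. Within slides, all 8 Hoxb differences were positive on slide 2, which holds this array, against 2 on slide 1 and 5 on slide 3.

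**Figure D3:**
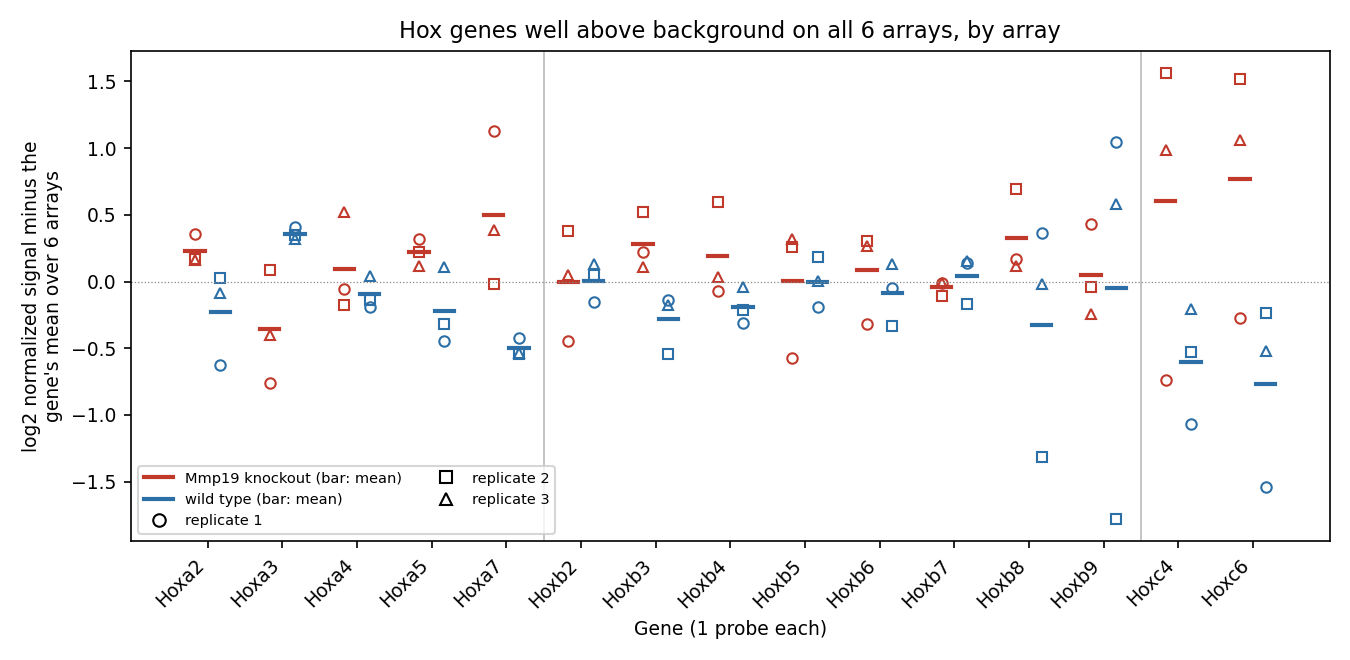
Log2 signal of the 15 Hox genes on each array, minus the mean of that gene over 6 arrays (vertical axis), so that genes can share an axis without their levels being compared. Red is knockout, blue is wild type, bars are means of 3, and symbols mark replicates 1 to 3. The wild-type points of Hoxa3 and Hoxa7 lie close together, and wild-type replicate 2 is far below the rest for Hoxb8 and Hoxb9.

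Hoxc4 and Hoxc6 gave the highest differences of the 15 Hox genes tested, with wide intervals. Hoxc6, a marker of chest-level identity, had levels of -2.14, -0.35 and -0.81 in the knockout and -3.40, -2.11 and -2.39 in the wild type. In each group replicate 1 was the lowest, and knockout replicate 1 fell just within the wild-type range. The difference was 1.53 (SE 0.54, 95% interval 0.26 to 2.81), a 2.89-fold higher signal, with a limma adjusted p of 0.168. Within slides the difference was 1.26, 1.76 and 1.58, and with slide as a block the limma adjusted p was 0.0549.

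Hoxc4, needed for the muscle of the oesophagus, showed the same order among the knockout arrays. Its levels were -2.30, 0.00 and -0.58 in the knockout and -2.63, -2.09 and -1.77 in the wild type, with knockout replicate 1 inside the wild-type range. The difference was 1.20 (SE 0.59, 95% interval -0.19 to 2.60; limma adjusted p = 0.294). It was 1.88 without knockout replicate 1 and 0.72 without knockout replicate 2. Normexp background correction gave lower differences, 0.71 for Hoxc4 and 0.76 for Hoxc6. It was run with an offset of 50 added to each signal, a setting that shrinks the log2 differences of dim probes. The intervening Hoxc5 was well above background on knockout replicate 2 only, at -3.03. Knockout replicates 1 and 3 read -3.13 and -3.92 and the wild-type arrays -3.47 to -4.65, so the groups overlapped. The Hoxc6 level on wild-type replicate 1 was close to -3.59, where the detected signals of that array began.

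Of the 23 Hox genes not compared, 7 were detected on some arrays. Hoxa6 was well above background on 4 arrays, with -0.99 on wild-type replicate 1 and -3.51 to -3.18 on the other five. One of 2 probes of Hoxa13, a gene of digits and the genital tract, read 3.06 on wild-type replicate 2 and -4.19 or less elsewhere, while its other probe was detected on knockout replicate 3 only, at -3.36. The probes of this gene therefore pointed at different arrays. Hoxc13, a hair and nail gene, was detected on knockout replicate 2 and wild-type replicate 3, at -3.11 and -3.36. Hoxb13, the prostate gene, was flagged as detected on wild-type replicate 3 only, yet its levels were -4.14, -3.72 and -4.11 on the wild-type arrays and -5.16, -6.12 and -5.98 on the knockout arrays. The groups did not overlap, but 5 of the 6 values were not well above background. The brighter Hoxa9 probe read -3.51 and -3.88 on the wild-type arrays that detected it and -5.48 on wild-type replicate 2. In the knockout it read -4.55 to -4.15, so the groups overlapped. On knockout replicate 1 detected signals began only at -2.97, above all of these levels. The 16 genes on no array were Hoxa10, Hoxa11, Hoxb1, Hoxc8 to Hoxc12, and all Hoxd genes but Hoxd8, among them the limb and digit genes Hoxd11 to Hoxd13. The probes of Hoxa11 and Hoxb1 were printed in 10 spots each; 1 of 10 was bright on wild-type replicate 2, flagged as an outlier by the software, and 0 of 10 on the other arrays.

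Genes next to the clusters were compared with the Hox genes beside them. Skap2, a signalling adaptor just outside Hoxa, had levels of 4.79, 5.01 and 4.81 in the knockout and 3.86, 3.85 and 4.08 in the wild type, without overlap. It rose by 0.94 (SE 0.19; limma adjusted p = 0.0457), but missed the threshold in the fit blocked by slide (adjusted p = 0.107) and without any 1 of the 6 arrays (adjusted p = 0.0542 to 0.193). On the other side of that cluster Hibadh differed by 0.15 and Evx1 was not well above background. Snx10, beyond Skap2, differed by 0.12, a sign that turned under other settings. Around Hoxb, Skap1 differed by -0.49 (-0.23 without knockout replicate 1) and Snx11 by -0.12, and Ttll6 was not detected. Other Snx11 probes gave 0.10 and 0.14, so its sign depended on the probe. Around Hoxc, Cbx5, which binds silent chromatin, differed by -0.62 (limma adjusted p = 0.117) and Calcoco1 by 0.76 (0.29 without wild-type replicate 2). Smug1 differed by -0.13 and Atp5g2 by -0.16, but a second Atp5g2 probe gave 0.11. Around Hoxd, where no Hox gene was detected throughout, Lnpk was detected on all arrays and differed by 1.07 (adjusted p = 0.187; 0.62 without knockout replicate 1), Mtx2 differed by 0.34, and Evx2 was not well above background. Of noncoding genes inside the clusters, Hoxa11os was detected on knockout replicates 1 and 3 and wild-type replicate 1, and Hoxd3os1 on wild-type replicate 1 only.

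The partners and regulators of Hox genes were described by list. The lists here and below were chosen with earlier results of these data known. Their shares of called genes are therefore no test of enrichment. Of 12 TALE proteins, the homeodomain family of Pbx and Meis that binds DNA with Hox proteins, with their inhibitor Pbxip1, 9 were tested and 0 passed the threshold in either direction, with a median difference of 0.12. Pbxip1 differed by 0.83 (SE 0.22; limma adjusted p = 0.0911) and Meis2 by 0.47 (adjusted p = 0.270), both without overlap between groups.

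Retinoic acid and Cdx proteins switch Hox clusters on in the embryo. Of 18 such genes, 11 were tested and 2 (18.2%) were higher in the knockout, where 4.80% of named genes were called in either direction, with a median of 0.39. Aldh1a1, which makes retinoic acid, had levels of 4.33, 5.17 and 5.03 in the knockout and 1.27, 2.92 and 2.45 in the wild type, and rose by 2.63 (SE 0.46; limma adjusted p = 0.0298, with slide as a block 0.0341). Rxra, a retinoid receptor partner, rose by 1.26 (SE 0.18; adjusted p = 0.0191), but missed the threshold in the fit blocked by slide (adjusted p = 0.0647), and a second probe gave 0.40. Normexp background correction gave 0.68 for Rxra (adjusted p = 0.107) and the mean over its probes 0.83 (adjusted p = 0.150). Neither call held without knockout replicate 2, knockout replicate 3 or wild-type replicate 3 (adjusted p = 0.0538 to 0.138); Aldh1a1 also lost it without knockout replicate 1 (0.0511) and Rxra without wild-type replicate 1 (0.0562).

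Polycomb complexes keep Hox genes silent and Trithorax complexes keep them active. Of 30 Polycomb genes 28 were tested, with 0 higher and 2 lower (7.14%, against 4.80% of named genes) and a median of -0.01. Rbbp4, a histone-binding subunit shared with other complexes, fell by 1.01 (SE 0.19; limma adjusted p = 0.0381, with slide as a block 0.0854), and Phc2, a subunit of the PRC1 complex, fell by 1.01 (SE 0.20; adjusted p = 0.0433, with slide as a block 0.0954). Neither passed when any array other than wild-type replicate 2 was left out (adjusted p = 0.0699 to 0.196). Of 18 Trithorax genes 16 were on the array and tested, with 0 calls and a median of -0.15; Kdm6a differed by 0.72 (adjusted p = 0.183) and Kmt2d by -0.70 (adjusted p = 0.202).

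Positional factors outside the clusters included a few with far larger differences than any Hox gene. Of 48 such factors 31 were tested, with 1 higher and 2 lower (9.68%, against 4.80% of named genes). This list too was chosen with earlier results known, and an item is left out of its counts. Its share is therefore no test of enrichment. The median size of difference was 0.66, against 0.44 for Hox genes, and whether the lists differ was not tested. The brightest Six2 probe was well above background on 0 of 3 knockout and 3 of 3 wild-type arrays. Its knockout signal was lower by at least 14.2-fold (adjusted p = 0.00439 by limma), with measured means of -5.55 and 0.097. With normexp background correction its difference was -2.30 (limma adjusted p = 0.0119). Another Six2 probe was well above background on no array, with means of -5.89 in the knockout and -5.54 in the wild type. Isl1 was detected on 1 of 3 knockout arrays and fell by 2.57 (SE 0.41; adjusted p = 0.0236), a size that rests on 2 knockout values not well above background; it was -0.76 with normexp (adjusted p = 0.137). Wt1, which also marks mesothelium, rose by 3.78 (SE 0.76; adjusted p = 0.0436), but missed the threshold with quantile normalization, the percentile over detected probes and the authors' log2 values (adjusted p = 0.0508, 0.0522 and 0.0553). Without any 1 of several arrays the calls of Isl1 (knockout replicate 1 or 3, wild-type replicate 3; adjusted p = 0.0585 to 0.118) and Wt1 (knockout replicate 2 or 3, wild-type replicate 1 or 3; adjusted p = 0.0943 to 0.179) were lost. No Hox gene was detected in a whole genotype and missing from the other, the pattern shown by the brightest Six2 probe.

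**Figure D4:**
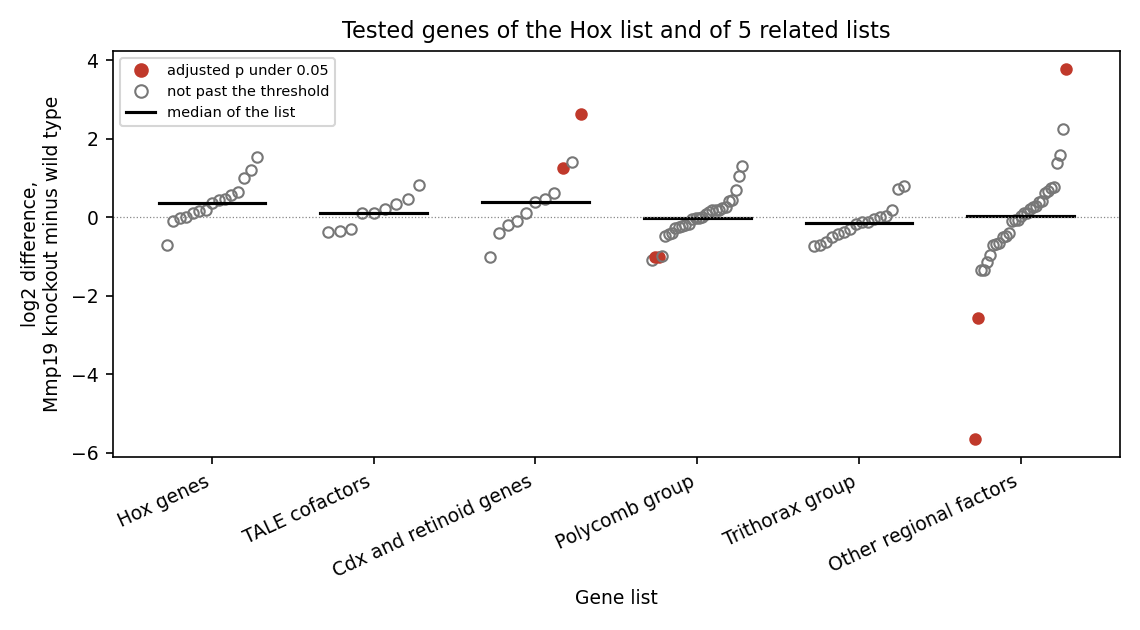
Difference in log2 signal, knockout minus wild type (vertical axis), of each tested gene of the Hox list and 5 related lists (horizontal axis). Filled red points passed an adjusted p of 0.05, open points did not, and black lines are list medians. The 15 Hox points lie between -0.71 and 1.53 with none filled, while the regional factors reach -5.65 and 3.78.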

How the data were processed

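Total RNA of 6 fibroblast cultures, 0.5 µg each, was labelled with Cy3 for one-colour Agilent arrays, as the labels' protocols state. Sample titles gave group and replicate. The deposited scanner tables hold processed spot intensity, background-subtracted by Agilent Feature Extraction 10.7.3.1 per the file headers (9.1 per the submitters' processing notes); mm9 was the build of the array's annotation. A table of log2 values was deposited by the authors, for 35844 probes, with column medians of 5.51 to 5.76; each column correlated best with its own array (0.996 or more), but its centring is unknown, and it served as an alternative only.

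Flagged spots were dropped, spots of 1 probe averaged, and each array's 75th percentile of log2 intensity subtracted. That left 55681 probes, of which 26413 were named through RefSeq accessions (GRCm38.p6). Of these probes, 24214 were well above background on all 3 arrays of a group and were tested with limma 3.58.1 in R 4.3.3 (lmFit and eBayes, two-sided, Benjamini-Hochberg adjustment over all tested probes, threshold 0.05). A gene was represented by its brightest tested probe. The fitting code was tested on simulated data. Between 43.1% and 54.5% of spots per array were well above background, and no spot was saturated; the number of arrays, 3 against 3, limits the precision.

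Where a whole group lacked detection, a fold is a bound, written "at least": the bright group's mean against the dim group's mean, in which each array counts with its own value or with its lowest detected signal, whichever was higher. Intervals are 95% intervals of the moderated fit. P-values measure the spread between these cultures.

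Named genes were all Hox genes on the array, Mmp19, up to 4 called members of each related list or the 2 with the smallest p where none was called, and the nearest named genes on either side of each cluster. The Hox members and all lists were chosen with earlier results of these data known. Replicate number equals slide. After each group's mean was subtracted, the 2 arrays of a slide had correlations of 0.10, -0.02 and 0.21. Knockout and wild-type arrays from different slides had correlations between -0.29 and 0.20, so the ranges overlapped. Whether the numbers pair the cultures could therefore not be decided, and slide as a block was an alternative. Other alternatives changed the background correction, scaling, dim-probe filter, variance prior, array weights and probe summary, and left out each array. The normexp alternative added an offset of 50 before the logarithm, so smaller differences of dim probes there follow in part from that setting. Noncoding genes of the clusters without a probe named here were not analysed here. An item of the list of regional factors is not reported here and was left out of that list's counts.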

Additional observations from a re-analysis of the deposited data

How the results depend on the processing

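Under 17 alternatives each, the counts of Hox genes called stayed at 0 higher and 0 lower, and array weights, which gave knockout replicate 3 a weight of 4.86 and wild-type replicate 2 one of 0.29, called 2 higher (Hoxa7, adjusted p = 0.0227, and Hoxc6, 0.0172) and 1 lower (Hoxa3, 0.0305). With the replicate block, which here is the slide, 0 Hox genes were called in either direction; named genes called in all fell from 598 to 224 and Hoxc6 had an adjusted p of 0.0549. Whether the same number pairs cultures could not be decided. Mmp19 stayed lower in the 17 alternatives that could test it, but missed the threshold with normexp background (-1.40, adjusted p = 0.0759) and without a filter on dim probes (-4.62, 0.0551); leaving out arrays gave -5.31 to -4.24, with adjusted p of 0.0900 without knockout replicate 3 and 0.0774 without wild-type replicate 3. Signs of differences near 0 turned. Normexp gave 0.033 for Hoxb2, -0.21 for Hoxb5 and -0.071 for Hoxb9; the percentile over detected probes gave -0.11 for Hoxb5 and -0.020 for Hoxb9; the authors' log2 values gave -0.13 for Hoxb5, -0.041 for Hoxb9 and -0.024 for Snx10; array weights gave -0.64 for Hoxb9 and -0.076 for Snx10; median scaling gave 0.037 for Hoxb2, quantile normalization -0.084 for Hoxb5 and the mean over probes 0.040 for Snx11. Leaving out 1 array gave -0.021 to 0.33 for Hoxa4, -0.21 to 0.21 for Hoxb2, -0.15 to 0.29 for Hoxb5, -0.77 to 0.65 for Hoxb9, -0.15 to 0.33 for Snx10, -0.27 to 0.011 for Snx11 and -0.37 to 0.0031 for Smug1. The percentile over detected probes moved the median of all probes by -0.12 and the authors' values by -0.11; the Hox median relative to all probes was 0.30 in the analysis as reported, 0.30 and 0.26 under these, 0.16 without wild-type replicate 2, 0.17 with normexp, 0.13 with the gIsPosAndSignif filter, 0.20 with array weights and 0.005 without a filter on dim probes, and up to 0.38 in the others. Without that filter Aldh1a1, Rxra, Rbbp4, Phc2, Skap2, Isl1 and Wt1 missed the threshold (adjusted p = 0.0898 to 0.294), and with gIsPosAndSignif Aldh1a1, Rbbp4, Phc2, Skap2 and Wt1 did (0.05004 to 0.0865). Rbbp4, Phc2 and Skap2 also missed it with normexp (0.0578 to 0.0783), and Rbbp4 and Phc2 with median scaling (0.0552 and 0.0713). The share of called probes higher in the knockout was 62.0%, but 51.9% with the percentile over detected probes, 48.8% when wild-type replicate 2 was left out and 76.7% when replicate 3 of that group was. Probes called in all were 1124, but 65 higher and 42 lower without knockout replicate 3, 89 and 27 without the wild-type array of that number, 838 and 878 without wild-type replicate 2, and 2703 and 2365 with array weights. The cause of these changes was not tested. Probes not above background limit what can be said of 23 Hox genes.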
